A study of Mus musculus with 4 samples.

Results

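The experiment asked whether the lung's response to allergen differs when the mice breathe UCP-containing rather than particle-free air. It was read here as a difference of challenge effects: the mean of the 2 arrays from UCP air minus the mean of the 2 arrays from particle-free air, for every probe with a value on all 4 arrays. These 4 arrays are the whole series, and 18160 of 20205 probes qualified, of which 12532 carried a gene name, for 9153 genes. The labels do not spell out what UCP stands for. In each air, lung RNA of BALB/cJ mice that had been sensitized to ovalbumin, an allergenic protein of egg white, and then challenged with it was hybridised against a pool of lung RNA from 6 control animals of the same air that had not been sensitized. Each dual-colour array therefore gives a log2 ratio of challenged lung over its own control pool. Array 1 of each air carried the challenged lung in Cy5 and array 2 carried it in Cy3, so each dye orientation occurs once in each air. Mouse age and sex, the exposure dose and the times of exposure and challenge were not found in the labels.

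The arrays held values for 19349 to 19832 probes, with medians from -0.08 to 0.02 and median absolute deviations from 0.42 to 0.58 on the log2 scale, and their number limits the precision. Over all probes on all 4 arrays, Pearson's r was 0.07 between the arrays of particle-free air, 0.16 between those of UCP air and 0.07 to 0.18 between arrays of different airs. Spearman's correlation was 0.12, 0.26 and 0.17 to 0.30 in the same order. Arrays of an air thus resembled each other no more than arrays of different airs did. By Spearman's measure the most alike pairs were arrays of different airs with the same dye orientation, at 0.27 (Cy5) and 0.30 (Cy3). These correlations are across probes, which are not independent replicates. Probe brightness was not used here, so weak and strong spots count alike and a fold change of a weak spot may be off.

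Certain limits touch every value. The control pools differ between the airs, so a difference can lie in the challenged lung or in the pool. A ratio gives no level, so the tissue could not be checked against the abundance of lung markers, and Sftpc, surfactant protein C of alveolar type 2 cells, had ratios from -0.26 to 0.41 on the arrays. Fewer cells of a type and less RNA per cell cannot be told apart in whole-lung RNA, and sensitization and challenge cannot be told apart because the controls lacked both. Whether the paired arrays of an air carry RNA of different animals is not stated, so p-values reflect array-to-array spread, which may be technical. The sign of challenged over control is likely rather than stated. It rests on a plateau of capped ratios that lies on the positive side of both Cy5 arrays and on the negative side of both Cy3 arrays, and on Chil3, Retnla and Slc26a4, genes known to be strongly expressed in allergic lung, having positive ratios. If it were the other way round, every difference below would change sign.

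Allergen inhalation in sensitized mice recruits eosinophils and macrophages, drives macrophages into an alternatively activated state and turns airway epithelium towards mucus production. Inhaled particles are known for oxidant-defence and neutrophil-attracting responses. Whole lung can also hold tissue of neighbouring organs: the pulmonary veins of mice carry a sleeve of cardiac muscle continuous with the atrium, and thymus and fat lie close to the lung in the chest. Albumin, fibrinogen and the other classical plasma proteins are made mainly by hepatocytes in the liver.

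The largest differences with a shared tissue lay in heart muscle and liver-made transcripts, which gave 6 and 6 of the 15 named genes on the lower side. Of the allergic response genes plotted with their intervals, which were chosen after their values were seen, all but Retnla differed by less than 1 on the log2 scale. Ccl8 and Saa3 came close to that limit, at 0.97 and -0.97, and the share of all genes under it was not counted. In UCP air the ratios of heart muscle genes lay below those in particle-free air, where they were near 0. Ratios of liver-made plasma protein genes were high in particle-free air and near 0 in UCP air. The median difference was -2.08 over the atrial genes, -1.09 over the other heart muscle genes and -1.05 over the liver-made genes, against 0.01 over all 9153 genes. Of all genes 51.1% lay above and 48.8% below 0 in the difference, which is the background for the counts of every list. No probe passed the test of the difference. In limma, 0 of 18160 probes (0%) had a Benjamini-Hochberg adjusted p under 0.05, with a smallest adjusted p of 0.69, and robust eBayes also gave 0.

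At an unadjusted p under 0.05 there were 355 probes (1.95%) higher and 367 (2.02%) lower in UCP air. Together these 722 probes (3.98%) were fewer than the 908 that the test gives when no probe differs. Averaging the probes of a gene before the fit gave 0 genes past the threshold (0%) and 361 at an unadjusted p under 0.05. With array 1 of particle-free air left out 19 probes passed, all higher. Without array 2 of particle-free air 8 passed and without array 1 of UCP air 32 passed, all lower, and without array 2 of UCP air 0 passed. Of these 59 probes, 0 passed in more than 1 of the settings and 0 belonged to the genes named by rule. An exact permutation test of 2 arrays against 2 cannot give a two-sided p below 0.333, so for single genes the values on each array are given first. Airs that do not overlap are the outcome with that p of 0.333 in the permutation test, so non-overlap in a single gene carries little weight. The share of all genes without overlap was not counted.

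A count without a model asked where both UCP arrays lay at least 1.5-fold (0.58 on the log2 scale) beyond both particle-free arrays. It held 431 probes (2.37%) above and 427 (2.35%) below, and at 2-fold 282 probes in both directions together. At the level of gene means 157 genes (1.72%) lay above and 184 (2.01%) below. Among the 184 lower genes 20 (10.9%) were on the heart lists and 19 (10.3%) on the liver-made or acute phase lists, which hold 38 and 46 of the 9153 genes. Leaving an array out lets fewer arrays decide, and the count of 858 probes then became 3696 and 3630 without arrays 1 and 2 of particle-free air, and 2850 and 2334 without arrays 1 and 2 of UCP air. Which air carried the larger ratio differed by direction. Among the 157 higher genes the particle-free mean lay farther from 0 in 100 and the UCP mean in 57, and among the 184 lower genes the corresponding numbers were 86 and 98. The means of the airs had opposite signs in 117 of the higher and 115 of the lower genes. Asking for a gap between ratios that centre near 0 makes opposite signs likely by itself. The shares over all genes were not counted for opposite signs or for the air farther from 0.

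**Figure D1:**
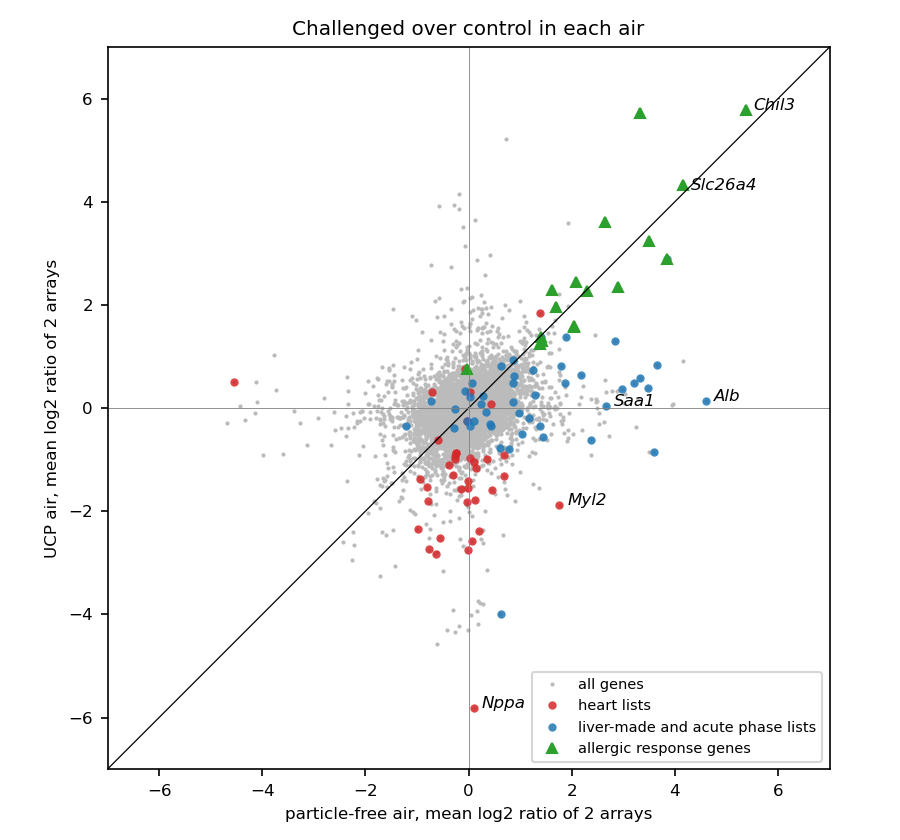
Mean log2 ratio of challenged over control in particle-free air (horizontal) and UCP air (vertical) for 9153 genes, each the mean of 2 arrays, with the diagonal marking equal ratios. Both axes end at 7, which leaves 29 genes outside. Heart genes spread downwards at horizontal values near 0, liver-made and acute phase genes spread to the right at vertical values near 0, and allergic response genes run along the diagonal.

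Atrial and ventricular muscle genes had lower ratios in UCP air. Nppa, the atrial natriuretic peptide, a hormone stored in atrial muscle cells, had log2 ratios of 0.38 and -0.17 in particle-free air and -5.72 and -5.91 in UCP air. Both UCP arrays lay far below both particle-free arrays, and the latter were close to 0. The difference was -5.92 ± 0.34 (SE, 95% interval -6.85 to -4.99, 60.5-fold), with -6.09 within the Cy5 arrays and -5.74 within the Cy3 arrays. It had the smallest p of all named genes and still missed the threshold (limma adjusted p = 0.69, n = 2 arrays in each air).

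The atrial list had 4 of its 12 genes measured, and 3 of them lay at least 1.5-fold lower in UCP air (background 2.01%). Myl7, the atrial regulatory myosin light chain, had ratios of -0.57 and -0.71 in particle-free air and -2.66 and -3.00 in UCP air. Myl4, the atrial essential light chain, had ratios of -0.65 and -0.88 against -2.77 and -2.71. In contrast to Nppa, both light chains lay below 0 in particle-free air as well, and in each gene the airs did not overlap. Kcnj3, a potassium channel subunit of atrial and pacemaker cells, had overlapping ratios of 0.84 and 0.04 against -0.39 and 0.54.

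The stretches of DNA just before the starts of these genes are shown because members of the heart and liver groups lay apart in the same direction and promoters are where tissue-specific factors are known to bind. They are RefSeq promoter sequences of mouse build GRCm38.p6, the 250 bases before the annotated start, outside the transcript: Nppa at chr4:148000472-148000721 on the plus strand, Myl7 at chr11:5898783-5899032 on the minus strand, Alb (albumin) at chr5:90460620-90460869 on the plus strand and Fabp1 (the liver fatty acid-binding protein) at chr6:71199629-71199878 on the plus strand. Capitals mark matches on either strand to the motifs searched in each: TATAAA in all of them, AGATAA, the CArG box of serum response factor and the MEF2 site in the heart genes, and CCAAT and GTTAAT in the liver genes.
Nppa: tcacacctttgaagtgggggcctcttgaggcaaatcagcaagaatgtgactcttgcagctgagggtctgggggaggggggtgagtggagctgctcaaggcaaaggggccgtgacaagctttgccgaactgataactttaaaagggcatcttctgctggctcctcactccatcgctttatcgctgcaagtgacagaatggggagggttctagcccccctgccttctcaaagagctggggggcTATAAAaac
Myl7: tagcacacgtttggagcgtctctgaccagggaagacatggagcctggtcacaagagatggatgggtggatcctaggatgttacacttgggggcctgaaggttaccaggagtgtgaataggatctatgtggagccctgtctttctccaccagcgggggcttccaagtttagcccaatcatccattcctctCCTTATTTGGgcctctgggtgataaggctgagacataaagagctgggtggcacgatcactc
Alb: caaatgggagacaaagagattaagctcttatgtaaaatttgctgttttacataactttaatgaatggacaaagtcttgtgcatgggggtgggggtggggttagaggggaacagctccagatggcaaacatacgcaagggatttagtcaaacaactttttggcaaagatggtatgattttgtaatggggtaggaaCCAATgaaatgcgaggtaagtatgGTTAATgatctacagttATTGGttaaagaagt
Fabp1: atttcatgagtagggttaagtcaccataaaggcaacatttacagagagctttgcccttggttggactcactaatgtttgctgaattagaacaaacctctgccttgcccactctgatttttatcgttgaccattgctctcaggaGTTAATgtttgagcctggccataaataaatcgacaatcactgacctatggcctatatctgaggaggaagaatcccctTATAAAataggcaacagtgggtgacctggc
Nppa holds TATAAA beginning 9 bases before the start. Myl7 holds a CArG box beginning 61 bases before the start, Alb holds GTTAAT at 32 bases and CCAAT at 56 and, on the other strand, at 15 bases, and Fabp1 holds TATAAA at 30 and GTTAAT at 107 bases.

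Over the lists, the same window was available for 33 of the 38 measured heart genes and 36 of the 46 measured liver-made and acute phase genes, with 40 promoters in each set. The CArG box was found in 6 of the 40 heart promoters (15%), in 2.5% of the liver and acute phase promoters and in 482 of all 32851 promoters (1.47%). The MEF2 site, which can share letters with TATAAA, was found in 12.5%, 5.0% and 2.92% of the same sets, and AGATAA in 15%, 12.5% and 9.99%. GTTAAT was found in 11 of the 40 liver and acute phase promoters (27.5%), in 7.5% of the heart promoters and in 6.43% of all promoters. TATAAA was found in 20.0%, 7.5% and 12.4%, and CCAAT in 37.5%, 47.5% and 33.8%. These matches describe letters in a window and were not tested against the arrays.

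Of 44 heart muscle genes 34 were measured, and 29 of them lay below (background 48.8%) and 5 above 0 in the difference. At least 1.5-fold lower in UCP air were 17 (50.0%, background 2.01%), and 2 were at least 1.5-fold higher (5.88%, background 1.72%). The list's median ratio was -0.17 and -0.02 on the particle-free arrays and -1.31 and -1.21 on the UCP arrays. With probe choice changed so that each gene was read from its probe of smallest p, which leans to large differences by construction, the median difference was -1.54.

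The thick filament came out as follows. Myl2, the ventricular regulatory light chain, had ratios of 2.03 and 1.5 in particle-free air and -1.90 and -1.86 in UCP air. Its ratios were above 0 in particle-free air and below 0 in UCP air (difference -3.65 ± 0.33, SE, 12.5-fold, limma adjusted p = 0.846). Myl3, the ventricular essential light chain, had ratios of 0.29 and 1.07 against -1.52 and -1.12. Mybpc3, the cardiac myosin-binding protein, differed by -1.61, and Myh7, the slow myosin heavy chain, by -1.04.

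The cardiac troponins of the thin filament lay above or close to 0 in particle-free air and low in UCP air, unlike its other parts Tpm1 and Actc1 (differences 0.83 and 0.30). Tnnt2, the cardiac troponin T, had ratios of 0.04 and -0.06 against -2.58 and -2.94. Tnni3, the cardiac troponin I, had ratios of -0.09 and 0.22 against -2.86 and -2.31. Both airs were tight and far apart in these troponins, with differences of -2.75 ± 0.31 and -2.65 ± 0.36 (SE, n = 2 in each air, limma adjusted p = 0.846 and 0.883). Tnnc1, the slow and cardiac troponin C, had ratios of 0.75 and 0.15 against -1.31 and -1.87.

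Several genes of oxygen storage, fuel use and calcium handling in heart muscle also lay lower in UCP air, while the energy genes Ckm and Pgam2 did not. Mb, myoglobin, had ratios of 0.04 and 0.37 in particle-free air and -2.66 and -2.11 in UCP air. Ankrd1, a stress-inducible nuclear protein of cardiac muscle, had ratios of -0.07 and -0.07 against -2.47 and -2.18 on its probe of smallest p, and on its other probe -0.96 and -1.13 against -2.28 and -3.16. Fabp3, the heart fatty acid-binding protein, had ratios of 0.79 and 0.62 against -2.11 and -1.85. A further Fabp3 probe gave only 0.44 and -0.43 against 0.03 and 0.03, so its probes disagreed. Cox6a2, a muscle subunit of cytochrome oxidase, differed by -1.90, Casq2, the calcium store protein of cardiac muscle, by -1.79, Pln, phospholamban, by -1.41 and Atp2a2, the calcium pump it regulates, by -1.40.

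The exceptions on the heart list were few and included genes shared with other muscle. Ckm, muscle creatine kinase, had ratios of -0.58 and -0.81 in particle-free air and 0.30 and 0.31 in UCP air, above rather than below. Actn2 and, as given above, Tpm1 and Actc1 lay above 0 in the difference too, Actn2 by 0.46, and in Actn2 and Actc1 the airs overlapped. Pgam2, muscle phosphoglycerate mutase, had a mean difference of 5.06, which rests on 1 probe at the capped ratio of -16.05 on array 2 of particle-free air, and its other probe had ratios of -0.63 and -1.17 against 1.79 and 1.13. Skeletal muscle genes, measured for 11 of 18, had a median difference of 0.06 with 7 above and 4 below 0. Their ratios were low in both airs, with list medians of -1.27, -1.77, -0.94 and -1.02 over the arrays, and Tnnc2, the fast troponin C, lay higher in UCP air, at 0.40 and 0.10 against -1.85 and -1.67.

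**Figure D2:**
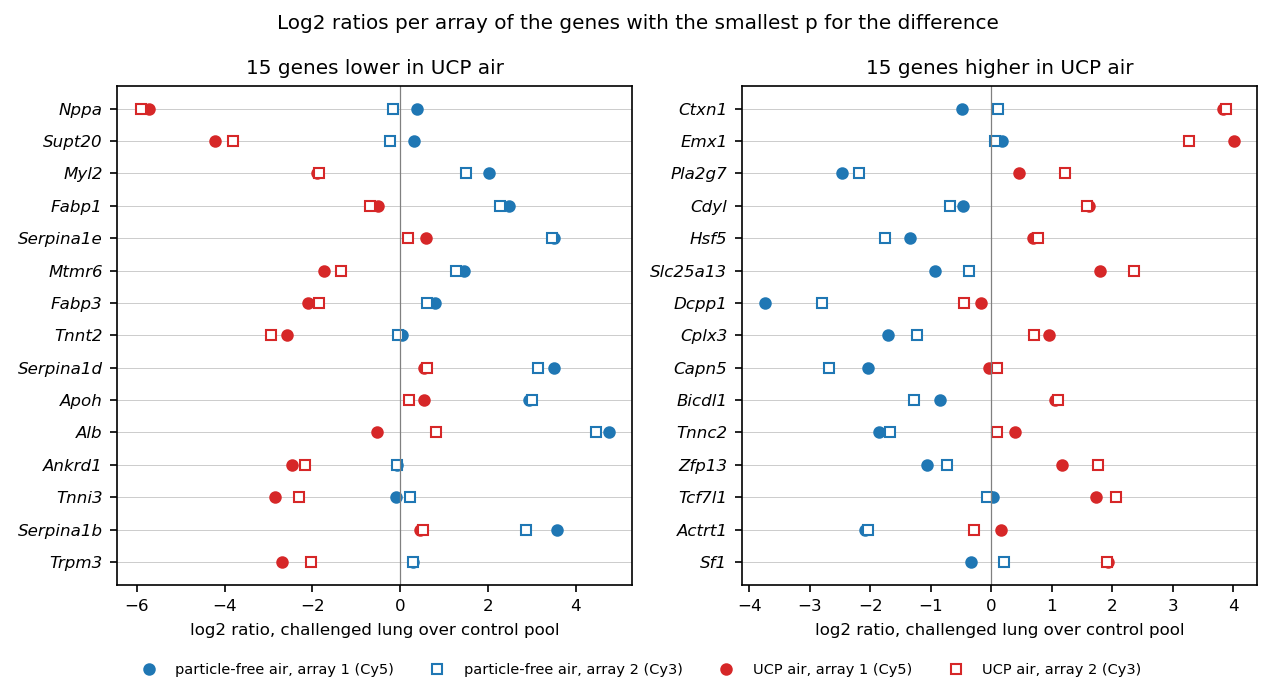
Log2 ratio of challenged lung over control pool on each array for the 15 genes with the smallest p on each side of the difference, blue for particle-free and red for UCP air, filled circles for array 1 (Cy5) and open squares for array 2 (Cy3). On the left, heart genes such as Nppa and Tnnt2 sit near 0 in particle-free air and low in UCP air, and liver-made genes such as Alb and Serpina1e sit high in particle-free air and near 0 in UCP air.

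Liver-made plasma protein genes reached the same sign of difference from the other side: their ratios were high in particle-free air and close to 0 in UCP air. Alb had log2 ratios of 4.75 and 4.46 in particle-free air and -0.53 and 0.81 in UCP air. The airs were far apart, and the UCP arrays lay on either side of 0 (difference -4.47 ± 0.55, SE, 95% interval -5.94 to -3.00, 22.2-fold, limma adjusted p = 0.883). Of 56 listed genes 37 were measured, 32 with a difference below (background 48.8%) and 5 above 0. At least 1.5-fold lower in UCP air were 16 (background 2.01%) against 0 higher (background 1.72%). The list's median ratio was 1.46 and 0.73 on the particle-free arrays and 0.22 and 0.11 on the UCP arrays. Its median difference of -1.05 became -0.63 without array 1 of particle-free air and -0.73 without array 2 of UCP air.

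Fabp1 had ratios of 2.48 and 2.28 in particle-free air and -0.51 and -0.70 in UCP air. Its difference was nearly equal in the dye orientations, -3.00 within the Cy5 and -2.98 within the Cy3 arrays (-2.99 ± 0.30, SE, 7.94-fold, limma adjusted p = 0.846). Apoh, a phospholipid-binding plasma glycoprotein, had ratios of 2.94 and 2.99 against 0.53 and 0.20. Serpina1e, a protease inhibitor of the alpha-1 antitrypsin family, had ratios of 3.51 and 3.45 against 0.59 and 0.17. Its near-identical relatives Serpina1d and Serpina1b differed by -2.74 and -2.73, and since their transcripts may cross-hybridise the 3 are not separate evidence.

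Other secreted proteins of the liver had the same order. The heme carrier Hpx had ratios of 3.83 and 3.50 in particle-free air and 1.2 and 0.48 in UCP air, which left it above 0 in both. F2, prothrombin, had ratios of 1.60 and 1.29 against 0.14 and -1.28, and Serpinc1, antithrombin, 2.17 and 2.20 against 0.31 and 0.98. Both of these coagulation genes lay higher on both arrays of particle-free air. Fgb, the fibrinogen beta chain, was 3.67 and 3.52 in particle-free air, but its UCP arrays split into 1.27 and -2.99. Of the other fibrinogen chains, Fgg had 0.12 and 2.47 against 0.19 and 0.30 and Fga differed by 0.19, both with overlapping airs.

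Apolipoproteins were uneven. Apoc1 differed by -1.36 with non-overlapping airs. Apoa1 had ratios of 2.71 and -0.92 in particle-free air and 0.68 and 0.55 in UCP air, and Apoa2 3.41 and 0.17 against 1.10 and 0.51. For these apolipoproteins the high ratio stood on array 1 of particle-free air alone, which differed from array 2 by more than the airs differed. Among intracellular liver enzymes, Cyp3a11, a drug-metabolising cytochrome P450, had 2.45 and 3.24 against 1.04 and 1.56, while the urea cycle gene Cps1 differed by -0.16. The iron carrier Trf had a mean difference of -4.60 that rests on 1 probe at the capped ratio of -16.33, and its other probe differed by 0.28.

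Acute phase genes, made in liver and partly in lung during inflammation, leaned lower in UCP air as a list but differed in size. Saa1, a serum amyloid A of liver and epithelium, had ratios of 3.02 and 2.31 in particle-free air and 0.29 and -0.21 in UCP air. Saa3, the serum amyloid A that macrophages and lung epithelium also make, had 3.77 and 3.93 against 3.13 and 2.63. Saa3 thus stayed far above 0 in both airs and differed by -0.97 (95% interval -1.80 to -0.14, limma adjusted p = 0.979), while Saa1 differed by -2.62. Orm1, a plasma glycoprotein, turned sign, from 0.65 and 0.92 to -0.74 and -0.85. Lcn2, an iron-sequestering protein of neutrophils and epithelium, had overlapping airs at 2.12 and 1.66 against 0.96 and 1.81. Over the list 16 of 25 genes were measured, with a median difference of -0.75, 12 below (background 48.8%) and 4 above 0 and 6 at least 1.5-fold lower (background 2.01%). The median was -0.44 without array 1 of particle-free air. Some of these genes also stand on the liver-made list, and the 2 lists together hold 46 measured genes, so they are not independent.

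Fat and thymus genes also lay lower in UCP air. White fat genes (16 of 26 measured) had a median difference of -0.56 with 12 below (background 48.8%) and 4 above 0, and 5 at least 1.5-fold lower (background 2.01%). Gpd1, glycerol-3-phosphate dehydrogenase, had ratios of -1.83 and -1.59 in particle-free air and -3.43 and -3.07 in UCP air. Fabp4, the adipocyte fatty acid-binding protein, had -1.22 and -0.87 against -1.94 and -2.15. These fat genes lay below 0 in both airs and lower in UCP air, whereas Plin1, the lipid droplet protein perilipin, had -0.73 and -1.76 against 0.29 and -0.58.

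Brown fat genes (11 of 18 measured) had a median difference of -0.99, with 10 below (background 48.8%) and 1 above 0. Ucp1, the uncoupling protein of brown fat, whose name has nothing to do with the label UCP, had ratios of -0.60 and -0.62 in particle-free air and -3.33 and -2.27 in UCP air. Cidea, a lipid droplet protein of brown fat, differed by -0.94. Cox8b, Cox7a1 and Fabp3 stand on both the brown fat and the heart list, so these lists are not independent.

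Thymus genes (17 of 30 measured) had a median difference of -0.58, with 15 below (background 48.8%) and 2 above 0. Cd8a, the coreceptor of killer T cells and most thymocytes, had ratios of -0.26 and -0.29 in particle-free air and -1.61 and -1.56 in UCP air. Dntt, the enzyme that adds bases during antigen receptor rearrangement in developing lymphocytes, had -0.53 and -0.36 against -1.60 and -1.69. Thy1 had 0.36 and -0.10 against -1.29 and -1.27. In all of these genes the airs did not overlap and the UCP arrays were the lower ones. The genes were named for large differences or after their values were seen, which makes non-overlap more likely. General T cell genes (16 measured, some of them shared with the thymus list) had a median of -0.24, which was -0.06 without array 1 of particle-free air and -0.01 without array 1 of UCP air, and the T cell receptor parts Cd3d and Cd3g differed by -0.42 and -0.30. Squamous epithelium genes had a median of -0.20 over 14 genes, -0.07 without array 1 of particle-free air, with Krt5, a basal keratin, at -1.22 and -1.62 against -3.29 and -2.85.

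**Figure D3:**
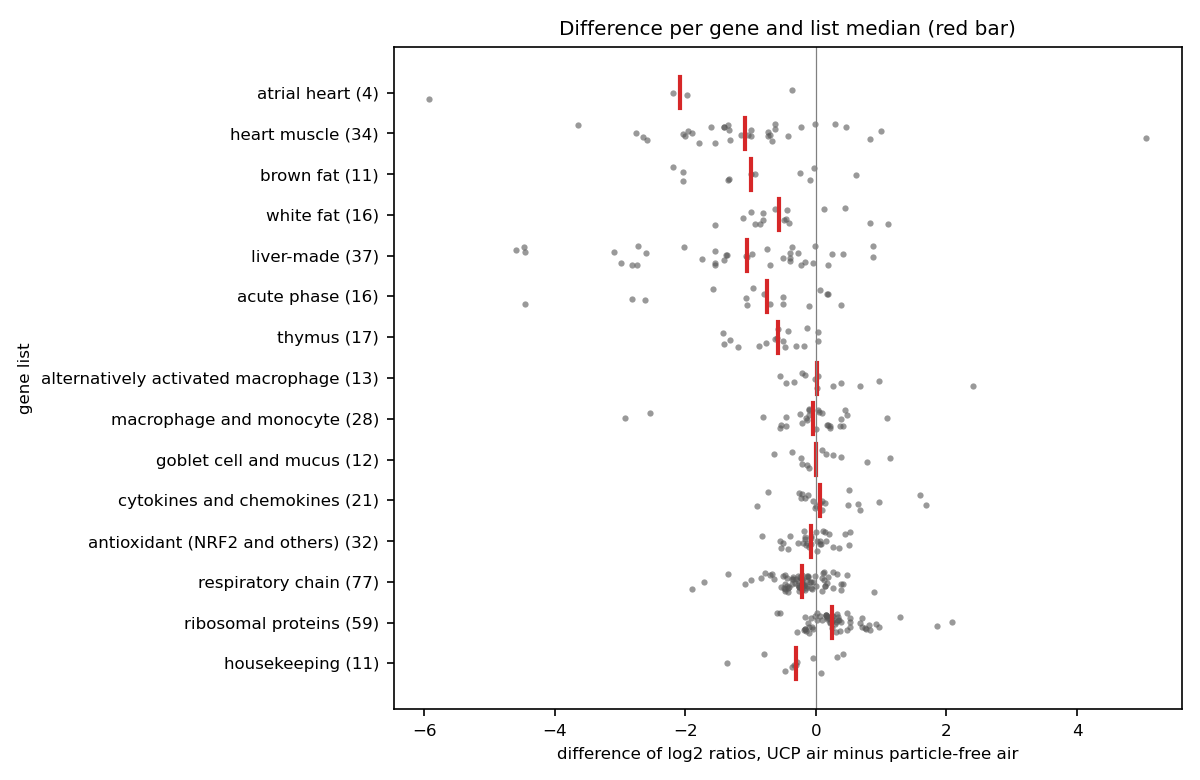
Difference of log2 ratios, UCP minus particle-free air, with each point a gene (mean of its probes), the red bar the median of the list and the number of measured genes in brackets. The heart, fat, liver-made, acute phase and thymus lists lie left of 0, with medians from -0.56 to -2.08, and the macrophage, goblet cell, cytokine and antioxidant lists plotted below them centre within 0.07 of 0.

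Several of the genes best known from allergic lung had similar ratios in the airs, while others measured as tightly, such as Ccl8 and Saa3, did not. Chil3, a secreted chitinase-like protein of activated lung macrophages, had ratios of 5.45 and 5.32 in particle-free air and 5.83 and 5.72 in UCP air. Its UCP arrays were slightly higher without overlap, and the difference of 0.39 had a 95% interval from -0.30 to 1.09 (limma adjusted p = 0.979). The interval leaves room for a difference of about 1 on the log2 scale. Ccl9 and Ccl6, chemokines of myeloid cells, differed by -0.26 (-1.01 to 0.49) and -0.02 (-0.79 to 0.74), and Arg1, the arginase of alternatively activated macrophages, by -0.02 (-0.80 to 0.77). These intervals do not show equality. They end short of the differences of the leading heart and liver genes, which were picked for their small p. Since they rest on array-to-array spread, which may be technical, they set no limit on differences between animals.

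Other genes of this group were less certain or leaned to 1 air. Retnla, a secreted protein of alternatively activated macrophages, had 5.34 and 1.30 in particle-free air and 5.97 and 5.49 in UCP air, so its difference of 2.41 (-1.34 to 6.17) comes from array 2 of particle-free air. Without that array, the remaining particle-free value of 5.34 lies 0.64 below UCP array 1, which shares its dyes. Ccl8, a chemokine for eosinophils and type 2 T cells, had 2.37 and 2.92 against 3.71 and 3.52. It leaned to UCP air by 0.97 (0.11 to 1.83, unadjusted p = 0.0344, limma adjusted p = 0.979). Slc26a4, the anion exchanger pendrin of mucous airway epithelium, differed by 0.16 (-1.15 to 1.47), and Tff2, a mucosal peptide, by -0.14 (-0.87 to 0.59). Ctsk, Chil1 and Lgals3 lay on the particle-free side, by -0.55, -0.46 and -0.46, with intervals that include 0.

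**Figure D4:**
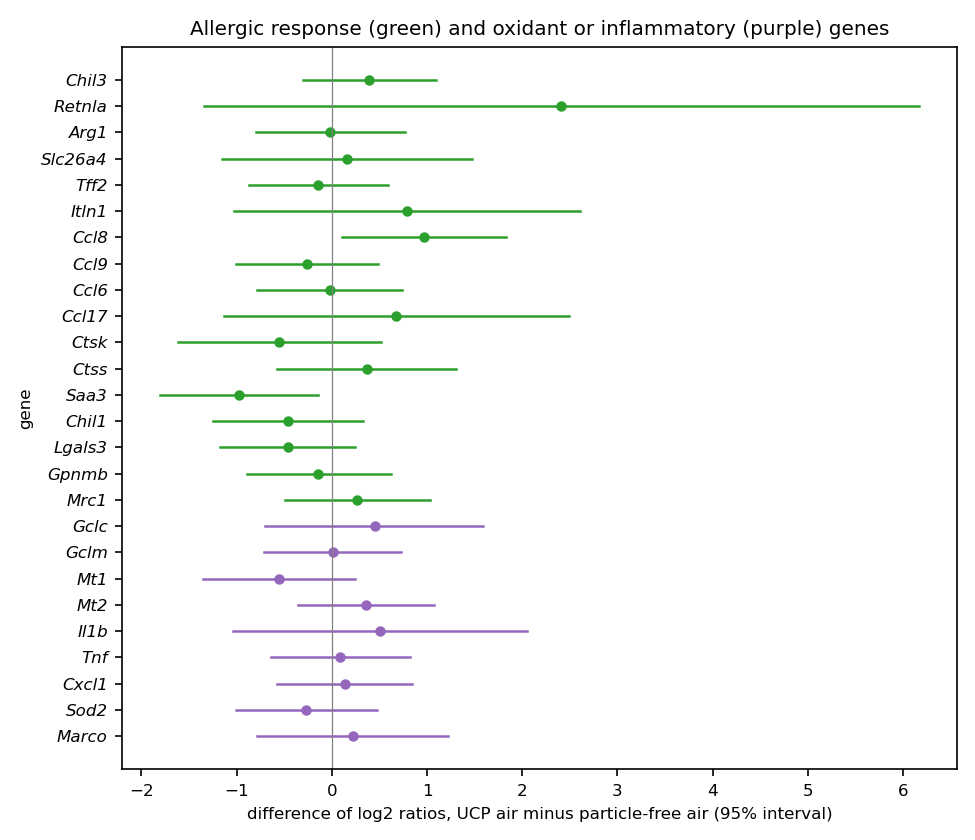
Difference of log2 ratios, UCP minus particle-free air, with its 95% interval from limma, for allergic response genes (green) and oxidant-defence or inflammatory genes (purple). All intervals but those of Ccl8 and Saa3 include 0, and that of Retnla is the widest, from -1.34 to 6.17.

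The macrophage, mast cell and B and plasma cell lists centred near 0 in the difference. The neutrophil and eosinophil medians, given below, lay somewhat below 0. Alternatively activated macrophage genes had a median of 0.02 over 13 genes, with 7 above and 6 below, and general macrophage genes -0.05 over 28 genes, a sign that turned to 0.09 with arrays scaled to the same spread. Their ratios were raised in both airs, with list medians from 1.21 to 1.81 and from 0.71 to 0.99 over the arrays. Single members stood apart. Tyrobp, a signalling adaptor of myeloid cells, had 0.49 and 0.34 in particle-free air and 1.5 and 1.5 in UCP air. Its receptor partner Trem2 had 2.97 and 0.84 against -0.81 and -0.46, so this pair lay in opposite directions.

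Neutrophil genes had a median of -0.19 over 15 genes, -0.34 without array 2 of particle-free air. Camp, a granule antimicrobial peptide, had 1.60 and 1.57 against 0.91 and 0.67, and Ngp, another granule protein, differed by -0.53. Eosinophil genes, with only 5 of 17 measured, had a median of -0.22, and Prg2, the major basic protein, had overlapping ratios of 1.01 and -0.02 against 0.66 and 0.31. Mast cell genes had a median of 0.08 over 6 genes, in which Tpsb2, a tryptase, had 0.48 and 0.47 against -0.56 and -0.05. B and plasma cell genes centred at 0.03 over 8 genes, and red cell genes at 0.08 over 10.

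Airway and alveolar lists centred near 0. Goblet cell and mucus genes had a median of 0.00 over 12 genes, club and ciliated cell genes 0.06 over 15, alveolar type 2 genes 0.13 over 11, and alveolar type 1 and endothelial genes -0.11 over 17. Bpifa1, a surfactant-like defence protein of the upper airway, had -1.18 and -1.46 in particle-free air and -0.28 and -0.10 in UCP air. Its ratios were thus below 0 in both airs and nearer to 0 in UCP air, without overlap (difference 1.13, 95% interval 0.39 to 1.88, limma adjusted p = 0.979). Abca3, the lipid transporter of surfactant-storing lamellar bodies, turned from -0.33 and -0.28 to 0.28 and 0.59, and Robo4, an endothelial guidance receptor, had -1.09 and -1.80 against -0.42 and -0.32. Smooth muscle genes had a median of -0.11 over 15 genes, with the smooth muscle myosin Myh11 at a difference of -0.07 (-0.87 to 0.72).

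Genes known to respond to inhaled particles or oxidants lay on both sides of 0. Antioxidant genes, most of them targets of the transcription factor NRF2, were measured for 32 of 47, with a median of -0.07, 14 above and 18 below 0, and 0 members at least 1.5-fold apart in either direction, a count near the background of 1.72% higher and 2.01% lower. Gclm, a subunit of the enzyme that limits glutathione synthesis, had 0.42 and 0.15 against 0.31 and 0.28, a difference of 0.01 (-0.71 to 0.73). The metallothioneins Mt1 and Mt2 differed by -0.55 (-1.35 to 0.24) and 0.36 (-0.35 to 1.07), with intervals that include 0. The 2 probes of Mt2 disagreed in sign, at -0.22 and 0.93. Hmox1, Nqo1, Cyp1a1 and Cyp1b1, classical responders, were not analysed here. Aldh3a1, an aldehyde dehydrogenase under the aryl hydrocarbon receptor, had -0.31 and -0.52 against -1.49 and -1.56, lower in UCP air without overlap, in a list of only 5 measured genes (median -0.10). Cytochrome P450 genes had a median of -0.09 over 15 genes.

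Inflammatory mediators centred near 0 as a list, while Il1b and Tslp were uncertain or scattered. Tnf differed by 0.09 (-0.64 to 0.82), Cxcl1, a neutrophil attractant, by 0.14 (-0.57 to 0.84) and Il1b by 0.51 (-1.04 to 2.05). Over 21 cytokine and chemokine genes the median was 0.07, with 12 above and 9 below 0 and 1 at least 1.5-fold higher (4.76%, background 1.72%). Tslp, an epithelial cytokine that starts type 2 responses, had scattered ratios of -2.18 and -1.18 against 0.83 and -0.83. Over 20 receptors for them the median was 0.04, with 10 above and 10 below 0. Interferon response genes had a median of 0.04 over 19 genes, with Mx2 at 1.40 and 1.31 against 0.03 and 0.76, and MHC class II and antigen presentation genes -0.30 over 10 genes, which was -0.18 without array 1 of particle-free air and -0.12 without array 1 of UCP air. Hspa1a, a stress-inducible chaperone, had -0.38 and 0.00 against 0.90 and 0.92, and Jun, an immediate early transcription factor, had -0.98 and -0.96 against 0.00 and -0.17. These 2 were the members of the 26 measured immediate early and heat shock genes that lay at least 1.5-fold higher in UCP air (background 1.72%), in a list with a median of 0.09.

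Housekeeping machinery showed small shifts spread over many genes. Cytosolic ribosomal protein genes had a median difference of 0.25, with 44 of 59 above 0 (background 51.1% of all genes), and the median was 0.36 within the Cy5 and 0.05 within the Cy3 arrays. Without array 1 of UCP air it was 0.02. Respiratory chain subunits had a median of -0.22, with 59 of 77 below 0 (background 48.8%), and -0.13 without array 2 of UCP air. Cox6a2 and Cox8b, at -1.90 and -1.35, are muscle forms and also stand on the heart list, while Ndufs1, a complex I subunit of all tissues, turned from 0.68 and 0.86 to -0.36 and -0.29. The 11 measured housekeeping genes often used as references had a median of -0.31, with 8 below and 3 above 0, which was -0.13 without array 1 of particle-free air and -0.15 without array 1 of UCP air, and Actb, beta-actin, had 0.21 and 0.44 against -0.16 and -0.79. Cell cycle genes centred at -0.04 over 51 genes, with Uhrf1 at 1.59 and 1.25 against 0.37 and 0.39 and Anln at -0.62 and -0.90 against 0.29 and 0.23. Proteasome genes centred at 0.04 over 38, unfolded protein response genes at -0.15 over 22, matrix and protease genes at 0.10 over 64, complement genes at -0.17 over 15 and circadian clock genes at 0.01 over 9.

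On the higher side the 15 named genes came from varied families. They held 0 members of the heart lists (38 of all 9153 genes) or of the liver-made and acute phase lists (46 of 9153). With shares that small, 0 of 15 carries little weight. Ctxn1, a small membrane protein known from brain cortex, had ratios of -0.48 and 0.12 in particle-free air and 3.84 and 3.89 in UCP air. The UCP arrays were high and close together (difference 4.04 ± 0.35, SE, 95% interval 3.11 to 4.98, 16.5-fold, limma adjusted p = 0.846). Emx1, a homeobox factor of the developing forebrain, had 0.18 and 0.07 against 4.01 and 3.28. Tcf7l1, a transcription factor of the Wnt pathway, had 0.04 and -0.06 against 1.73 and 2.07, and Sf1, a splicing factor that binds the branch point, -0.34 and 0.21 against 1.93 and 1.92. In these 4 genes the particle-free ratios lay near 0 and the UCP ratios well above it.

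In others the ratio lay low in particle-free air and near 0 or above in UCP air. Pla2g7, the plasma enzyme that breaks down platelet-activating factor, had -2.46 and -2.19 against 0.46 and 1.23, a difference of 3.17 ± 0.40 (SE, 9.0-fold, limma adjusted p = 0.883). Dcpp1, a secreted protein of salivary glands, had -3.73 and -2.79 against -0.16 and -0.44, and Capn5, a calpain protease, -2.04 and -2.68 against -0.03 and 0.10. Actrt1, an actin-related protein of sperm, had -2.09 and -2.03 against 0.16 and -0.29. Slc25a13, the mitochondrial aspartate-glutamate carrier, turned from -0.92 and -0.37 to 1.80 and 2.37, and the chromatin corepressor Cdyl from -0.46 and -0.68 to 1.62 and 1.58. Hsf5, Cplx3, Bicdl1, Tnnc2 and Zfp13 turned sign as well, with differences from 2.01 to 2.36 and adjusted p from 0.883 to 0.92.

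The remaining named genes on the lower side were on no tissue list. Supt20, a subunit of the SAGA transcription coactivator, had 0.32 and -0.23 in particle-free air and -4.21 and -3.81 in UCP air on 1 probe (difference -4.05 ± 0.37, SE, 16.6-fold, limma adjusted p = 0.846). Its other probe had -0.38 and -1.18 against -0.35, with array 2 of UCP air missing, and did not repeat the difference. Mtmr6, a phosphoinositide phosphatase, had 1.46 and 1.27 against -1.74 and -1.36. Trpm3, a cation channel, had 0.30 and 0.28 against -2.70 and -2.04. None of the 30 named genes passed the test, with adjusted p from 0.69 to 0.961.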

How the data were processed

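Lung RNA of challenged mice and control pools was hybridised on 4 dual-colour arrays. Per the labels' protocols, RNA came from individual organs and 20 µg of total RNA was labelled indirectly with Cy3 or Cy5. The authors deposited log2 ratios. Scanner, image analysis and how ratios were normalized are not stated in these sources, and scale and relative direction were worked out from the values and from the plateau of capped ratios (20 to 58 probes on each array). Groups, replicate numbers and dyes come from the labels. The ratios were used as deposited. Of 20205 probes, 13852 had 1 gene symbol in the platform annotation and 6353 had none, and 2045 with a missing value were left out.

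limma 3.58.1 (R 4.3.3) fitted 1 coefficient for each air on all 4 arrays (2 residual and 2.32 prior degrees of freedom, eBayes). The contrast UCP minus particle-free air was tested two-sided with Benjamini-Hochberg adjustment over all probes, at a threshold of 0.05. When the fit was run on simulated data it missed the smaller planted differences and found only part of the large ones. That no probe passed therefore does not show that no probe differs. For lists, probes of a gene were averaged first, and adjusted p-values of list members are over 9153 genes. The 40 gene lists and the rules were chosen with earlier results of these data known, so lists are described by counts and medians without a test. Genes were named by rule: in each direction the 15 with the smallest p whose airs did not overlap, and in each list up to 6 members with the largest difference. The allergic and particle-response genes with intervals, and further list members, were chosen after their values were seen. Promoters are from RefSeq (GRCm38.p6). The replicate number marks the dye orientation, and deviations of same-numbered arrays correlated over probes at 0.05 (Pearson), 0.12 (Spearman) and 0.09 (Pearson without capped ratios). Nothing in the labels ties same-numbered arrays to shared animals, so they were not treated as pairs. Alternatives covered centring, scaling, capped ratios, missing values, the prior, the probe of a gene, the dye term and each array left out.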

Additional observations from a re-analysis of the deposited data

Results flagged for a closer look

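Among the 243 genes named by rule, 36 had both arrays of 1 air on 1 side of 0 and both arrays of the other air on the opposite side. Of all 9153 genes 705 (7.7%) did so. The rule picked the 243 for small p without overlap or for large differences, which favours opposite sides. The share of all genes is therefore no background for the 36, and an excess among them was not tested. The difference itself did not pass limma's test in any of the 36. On 16 the UCP arrays were the positive ones. Differences of log2 ratios, UCP minus particle-free air, follow.

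From below 0 in particle-free air to above 0 in UCP air went Pla2g7 (3.17), Slc25a13 (2.73), Zfp13 (2.36), Cplx3 (2.30), Hsf5 (2.29), Cdyl (2.17), Bicdl1 (2.13) and Tnnc2 (2.01) of the genes with the smallest p. The glycolytic enzyme Pgam2 (5.06) did so too, in part through a capped ratio. Among list members were the mitotic genes Kif20a (1.44) and Anln (1.01), the glucocorticoid receptor Nr3c1 (0.94), the collagen Col6a4 (0.90), the atypical chemokine receptor Ackr1 (0.75), the surfactant lipid transporter Abca3 (0.74) and the smooth muscle gene Synpo2 (0.62).

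In the opposite direction went the muscle genes Myl2 (-3.65), Fabp3 (-2.69), Mb (-2.59) and Tnnc1 (-2.04), the liver-associated genes Fabp1 (-2.99), Orm1 (-1.58) and Tat (-1.55), and Mtmr6 (-2.92) and Trpm3 (-2.66). Differences of the same kind were found for the myeloid receptor Trem2 (-2.54), the chaperone Clu (-1.36), the complex I subunit Ndufs1 (-1.09), the mucosal chemokine Ccl28 (-0.90), the collagen Col5a3 (-0.89), beta-actin (Actb, -0.80), the tryptase Tpsb2 (-0.78), the endothelial genes Eng (-0.77) and Emcn (-0.63), the metallothionein Mt1 (-0.55) and malic enzyme Me1 (-0.53). Several of these genes had a ratio near 0 on an array, such as -0.05 for Tpsb2 and for Mt1 on 1 UCP array each and -0.09 for Tat, so their sign there carries little weight.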

How the results depend on the processing

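The 30 named genes kept their direction in all 300 combinations of gene and setting, and 0 passed the threshold, with a lowest adjusted p of 0.0821. Probes past the threshold numbered 0 in each setting with all 4 arrays, the replicate block (dye orientation) included, where the smallest adjusted p was 0.96 against 0.69 without it, and 0 to 32 with an array left out. The replicate block changed no other call. With the arrays of an air averaged as if they held the same RNA, no residual degree of freedom is left, so that setting is a value with no test. Probes at least 1.5-fold apart numbered 858, and 1639 with missing values kept, 341 by gene means, 282 at 2-fold and 2334 to 3696 with an array left out. Without the genes of other tissues, an alternative added after seeing the data, 363 of the 427 lower probes were left.

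List medians changed beyond the spread between dye orientations as follows. With arrays centred, atrial heart was -2.13, heart muscle -1.13, alveolar type 1 and endothelium -0.15 and cytokines 0.03. With arrays scaled, atrial heart was -2.48, heart muscle -1.32, brown fat -1.29, white fat -0.81, smooth muscle -0.23, macrophages 0.09 and alveolar type 1 and endothelium -0.08. With missing values kept, heart muscle was -1.05, aryl hydrocarbon -0.44, red cell 0.19, club and ciliated cells 0.15 and receptors 0.11. With the probe of smallest p, heart muscle was -1.54, brown fat -1.35, smooth muscle -0.23 and alveolar type 1 and endothelium -0.14.

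With each array left out, the medians ranged from -2.18 to -1.99 for atrial heart, -1.22 to -1.02 for heart muscle, -0.29 to 0.27 for skeletal muscle, -1.25 to -0.63 for liver-made, -0.72 to -0.51 for white fat, -0.09 to 0.24 for red cell, -0.19 to 0.01 for eosinophil, -0.07 to 0.20 for goblet cell, -0.01 to 0.20 for club and ciliated, -0.20 to 0.06 for alveolar type 1 and endothelium, -0.24 to 0.01 for smooth muscle, -0.52 to 0.12 for aryl hydrocarbon, -0.46 to 0.08 for cytochrome P450, 0.02 to 0.12 for cytokine, -0.05 to 0.01 for receptor, -0.06 to 0.16 for matrix, 0.02 to 0.43 for ribosomal protein, 0.01 to 0.13 for proteasome, -0.17 to 0.05 for unfolded protein, 0.00 to 0.19 for immediate early and heat shock and -0.25 to 0.18 for clock genes. For lists whose changes stayed within that spread, the ranges included -0.84 to -0.44 for acute phase, -0.76 to -0.43 for thymus, -0.34 to -0.01 for T cell, -0.38 to -0.12 for MHC class II, -0.34 to -0.14 for neutrophil, -0.36 to -0.07 for complement, -0.30 to -0.07 for squamous, -0.48 to -0.09 for glucocorticoid and -0.38 to -0.13 for housekeeping genes. Brown fat ranged from -1.16 to -0.77. Some lists near 0 took both signs: -0.21 to 0.27 for alternatively activated macrophage, -0.22 to 0.24 for B and plasma cell, -0.09 to 0.24 for mast cell and -0.15 to 0.19 for interferon response genes. The cause of these shifts was not tested.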

Other observations

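Genes of steroid response differed in both directions. Tat, a liver enzyme induced by glucocorticoids, had ratios of 0.42 and 1.66 in particle-free air and -0.09 and -0.93 in UCP air, and Zbtb16, a transcription factor induced by glucocorticoids, had -0.03 and 0.40 against -1.13 and -0.73. The receptor Nr3c1 had -0.51 and -0.76 against 0.10 and 0.51. Over 14 measured genes the median difference was -0.21, with 6 above and 8 below 0.

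Of the 18 probes with identifiers from 7046 to 7063, a range chosen after the values were seen that includes Nppa (7059), 5 had both UCP ratios below -1, and the others did not or lacked a value. The share of all probes with both UCP ratios below -1 was not counted, so the 5 cannot be judged against it. Probe 7060, with no gene name, had 1.15 on array 1 of particle-free air and -2.42 and -2.26 in UCP air, probe 7061 (Supt20) had -4.21 and -3.81 in UCP air, and the unnamed probe 7063 had -1.97 and -1.31. The remaining one besides Nppa was Trpm3 (7046), with -2.70 and -2.04. The positions of the probes on the array were not used here.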
